A study of Mus musculus with 12 samples.

Results

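Genes that mark the pluripotent epiblast as it leaves the naive state, Fgf5, Otx2, Pou3f1, Sox3, Sox4 and Zic2, were followed across 12 RNA-seq libraries. They were found by gene symbol, and all 6 had a row in each of the 3 deposited tables, out of 19996 genes measured in the series. Mouse embryonic stem cells had been made to lose or to gain Foxd3, which encodes a forkhead protein, with 2 libraries of polyadenylated RNA per group. The tamoxifen-treated Foxd3fl/fl;Cre-ER cells (Foxd3-/-; 2 µM 4-hydroxytamoxifen for 3 days) were set against untreated cells of the same line (Foxd3fl/fl). This was done in SL (15% fetal bovine serum and leukemia inhibitory factor, on irradiated mouse embryonic fibroblast feeders) and in 2i (serum-free N2B27 with leukemia inhibitory factor, the MEK inhibitor PD0325901 at 0.4 µM and the GSK3β inhibitor CHIR99021 at 3 µM). The third comparison set tetON Foxd3 cells, which express Foxd3 when given doxycycline, against wild-type LF2 cells (WT). Both of these groups had doxycycline (1 µg/µl, 3 days) in 15% serum and leukemia inhibitory factor without feeders. No group combined tamoxifen with an unfloxed allele, and the sources used here give neither the driver of Cre-ER nor the number of clones. No tetON Foxd3 group went without doxycycline. A gain of Foxd3 therefore cannot be told apart from other differences between tetON Foxd3 and WT cells. Whether the 2 libraries of a group are separate cultures is not in the labels. P-values therefore measure the spread between these libraries, which may be technical.

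In the mouse embryo the epiblast passes from a naive state before implantation through a formative to a primed state after it. Naive factors such as Nanog, Tbx3 and Prdm14 are shut off on the way, FGF signalling through ERK drives the step, and genes such as Fgf5 and Pou3f1 come on. Embryonic stem cells in 2i, where MEK is blocked, are held near the naive state, while cells in serum are a mixture in which some cells express epiblast genes. Of the 6 genes, Fgf5 encodes a secreted fibroblast growth factor and is a standard marker of the epiblast after implantation. The other 5 encode transcription factors. Otx2 is a homeodomain protein that helps to open the enhancers of the formative state and later patterns the head. Pou3f1, also called Oct6, is a POU domain protein. Sox3 (SOXB1 group, X-linked) and Sox4 (SOXC group) have an HMG box and are also known from neural progenitors. Zic2 is a zinc finger protein of the epiblast and neural plate.

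Values are FPKM, fragments scaled to transcript length and sequencing depth, so levels can be set side by side between genes. Between 11033 and 11919 genes per library reached 1 FPKM. The depth of single libraries is not known, and the authors' group mean reads summed to between 24278900 and 27062500 in 2i and between 52789800 and 54096100 elsewhere. All 5 stem cell markers (Pou5f1, Sox2, Nanog, Zfp42, Sall4) reached 1 FPKM in each group. Foxd3 itself measured 1.62 and 1.83 FPKM in SL Foxd3-/- against 4.53 and 4.81 FPKM in SL Foxd3fl/fl. The groups lay apart, but Foxd3 passed neither the limma test used below (adjusted p = 0.137) nor the authors' test (adjusted here, p = 0.160). It measured 53.2 and 50.1 FPKM in the tetON Foxd3 libraries, against 10.6 and 14.1 FPKM in WT. In 2i it measured 2.07 and 2.45 FPKM in the libraries labelled Foxd3-/- against 2.51 and 2.42 FPKM in Foxd3fl/fl. By FPKM Foxd3 does not bear out the 2i label (limma adjusted p = 0.461). The fold of 1.7 in the authors' deposited table is on the higher side (authors' test, adjusted here, p = 9.43e-06). The 2i groups are named by their labels. Which exons the deletion removes is unknown here, and FPKM can include reads that lie outside them.

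**Figure D1:**
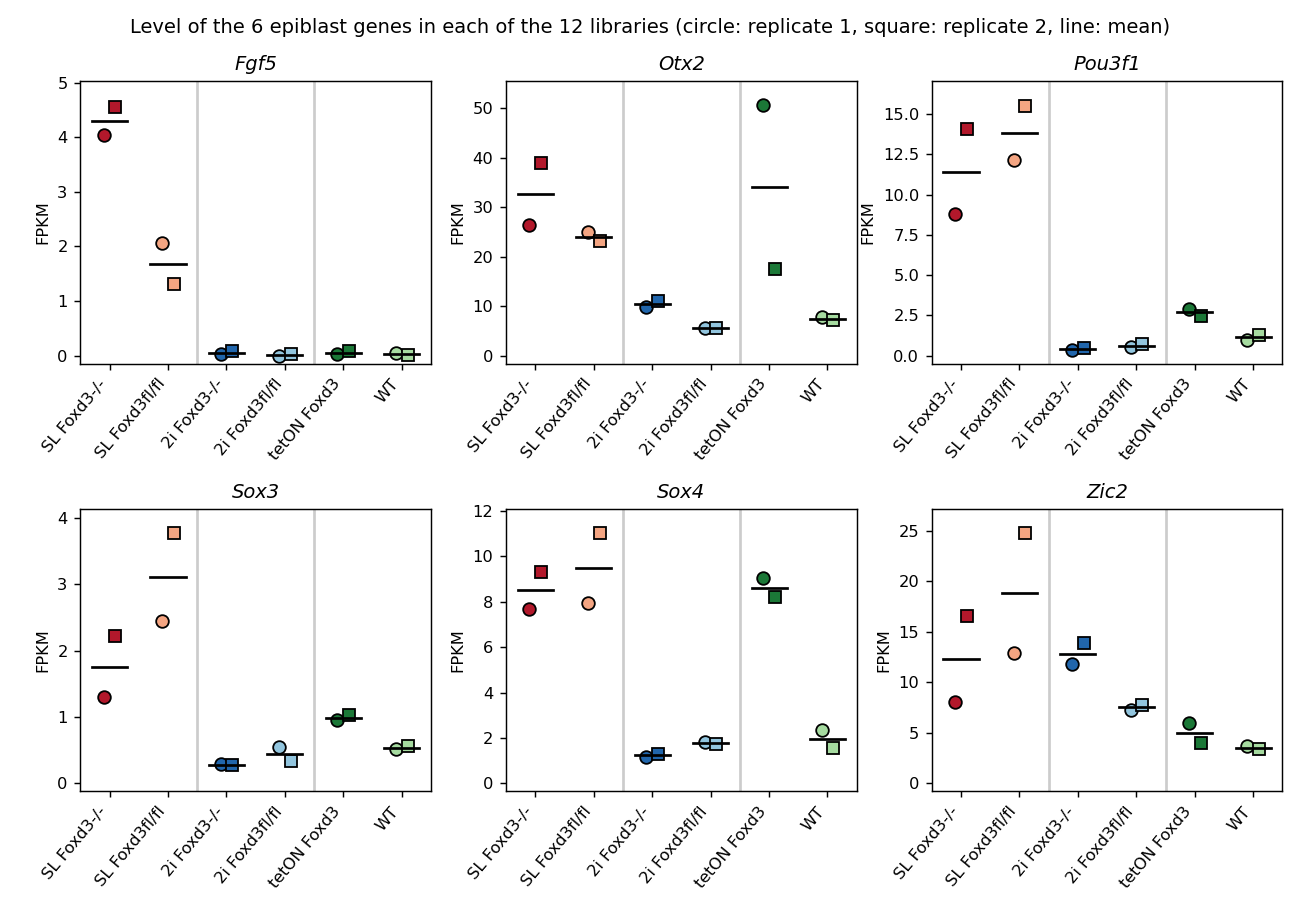
FPKM of the 6 genes in each of the 12 libraries, 1 panel a gene with its own axis; circles are replicate 1, squares replicate 2 and lines the mean of 2, and grey lines part the 3 deposited tables. Fgf5, Pou3f1, Sox3, Sox4 and Zic2 have their highest values in the SL groups. For Otx2 the tetON Foxd3 libraries lie far apart, at 50.6 and 17.4 FPKM.

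The 3 tables may have been normalized separately, so levels across tables are a description with no test. Fgf5 (ENSMUSG00000029337, chromosome 5, 98254184 to 98277030, plus strand, GRCm38) had a mean above 1 FPKM in the 2 SL groups only. Its mean was 4.30 ± 0.373 FPKM in SL Foxd3-/- and 1.68 ± 0.529 FPKM in SL Foxd3fl/fl (SD, n = 2 each), without overlap. In the other 4 groups the means ran from 0.0123 to 0.0568 FPKM, with overlapping libraries, and the authors' mean reads were 1.04 to 4.65 reads. The SL groups were also the only groups described as grown on feeders. The 16 fibroblast markers summed to 383 to 618 FPKM in the SL libraries, against 10.5 to 40.9 FPKM in the other libraries. The tetON Foxd3 and WT groups had serum without feeders, and Fgf5 averaged 0.0568 and 0.0275 FPKM there. The part of feeder RNA in the SL levels of Fgf5 and the genes below was not tested.

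Pou3f1 (ENSMUSG00000090125, chromosome 4, 124656807 to 124660655, plus strand, a single exon) was also highest in SL, with 11.4 ± 3.75 FPKM in Foxd3-/- and 13.8 ± 2.34 FPKM in Foxd3fl/fl, which overlapped. It averaged 2.69 ± 0.289 FPKM in tetON Foxd3 and 1.16 ± 0.220 FPKM in WT. It averaged 0.413 ± 0.0810 FPKM in 2i Foxd3-/- and 0.627 ± 0.128 FPKM in 2i Foxd3fl/fl (SD, n = 2 each). Neighbours in the order of levels overlapped only within SL. The highest group mean was 33.5 times the lowest for Pou3f1, against 11.0 times for Sox3, 7.72 for Sox4, 6.05 for Otx2 and 5.31 for Zic2.

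Sox3 (ENSMUSG00000045179, chromosome X, 60891366 to 60893430, minus strand, a single exon) was the lowest of the 5 transcription factor genes in SL. It averaged 1.76 ± 0.644 FPKM in SL Foxd3-/- and 3.11 ± 0.929 FPKM in SL Foxd3fl/fl, 0.991 ± 0.0579 FPKM in tetON Foxd3 and 0.536 ± 0.0314 FPKM in WT (SD, n = 2 each). It averaged 0.283 ± 0.0154 FPKM in 2i Foxd3-/- and 0.437 ± 0.148 FPKM in 2i Foxd3fl/fl (SD, n = 2 each). Among neighbours in this order only WT and 2i Foxd3fl/fl overlapped. Sox4 (ENSMUSG00000076431, chromosome 13, 28948919 to 28953713, minus strand, a single exon) fell into a high and a low set of groups. The high set was SL Foxd3-/- at 8.51 ± 1.16 FPKM, SL Foxd3fl/fl at 9.49 ± 2.17 FPKM and tetON Foxd3 at 8.62 ± 0.579 FPKM, all overlapping. The low set was 2i Foxd3-/- at 1.23 ± 0.0822 FPKM, 2i Foxd3fl/fl at 1.78 ± 0.0774 FPKM and WT at 1.96 ± 0.546 FPKM (SD, n = 2 each), of which WT and 2i Foxd3fl/fl overlapped.

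Otx2 (ENSMUSG00000021848, chromosome 14, 48657677 to 48673819, minus strand) averaged 34.0 ± 23.4 FPKM in tetON Foxd3 and 7.50 ± 0.467 FPKM in WT. It averaged 32.7 ± 8.84 FPKM in SL Foxd3-/- and 24.0 ± 1.26 FPKM in SL Foxd3fl/fl. It averaged 10.5 ± 0.827 FPKM in 2i Foxd3-/- and 5.62 ± 0.0511 FPKM in 2i Foxd3fl/fl (SD, n = 2 each). The order ran tetON Foxd3, SL Foxd3-/-, SL Foxd3fl/fl, 2i Foxd3-/-, WT, 2i Foxd3fl/fl, and of these neighbours only the first pair overlapped. For Zic2 (ENSMUSG00000061524, chromosome 14, 122475435 to 122479852, plus strand) both 2i groups stood above tetON Foxd3 and WT. It averaged 12.8 ± 1.44 FPKM in 2i Foxd3-/- and 7.56 ± 0.343 FPKM in 2i Foxd3fl/fl, and 4.99 ± 1.41 FPKM in the tetON Foxd3 libraries, against 3.56 ± 0.192 FPKM in WT. In SL it averaged 12.3 ± 6.01 FPKM in Foxd3-/- and 18.9 ± 8.42 FPKM in Foxd3fl/fl (SD, n = 2 each). Both SL groups overlapped with 2i Foxd3-/-, and the other neighbours in the order did not overlap.

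GENCODE M21 places Otx2os1 opposite Otx2, Gm2164 opposite Pou3f1 and Gm26735 opposite Sox4, and Gm49154 on the strand of Otx2. The sources used here do not say that reads were counted by strand, so reads of these overlapping genes cannot be told apart.

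Promoters are shown for Fgf5, Sox4 and Otx2, the 3 of the 6 symbols that matched the RefSeq table (GRCm38.p6), to set the sequence at their starts beside a change in a forkhead factor. The table gives 250 bases before to 50 after the annotated start. The letters run 5′ to 3′ on the strand of the gene. Fgf5 is at chr5:98253934-98254233 (plus strand), Sox4 at chr13:28953650-28953949 (minus strand), and Otx2, at the most upstream of its 4 listed starts, at chr14:48667595-48667894 (minus strand). Capitals mark the forkhead core letters AAACA or, on the other strand, TGTTT.
Fgf5: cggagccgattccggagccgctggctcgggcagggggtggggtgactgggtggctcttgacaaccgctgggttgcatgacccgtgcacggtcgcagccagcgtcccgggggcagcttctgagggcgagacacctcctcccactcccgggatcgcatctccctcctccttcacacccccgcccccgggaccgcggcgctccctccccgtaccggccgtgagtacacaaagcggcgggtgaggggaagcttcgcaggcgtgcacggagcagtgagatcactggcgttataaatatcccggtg
Sox4: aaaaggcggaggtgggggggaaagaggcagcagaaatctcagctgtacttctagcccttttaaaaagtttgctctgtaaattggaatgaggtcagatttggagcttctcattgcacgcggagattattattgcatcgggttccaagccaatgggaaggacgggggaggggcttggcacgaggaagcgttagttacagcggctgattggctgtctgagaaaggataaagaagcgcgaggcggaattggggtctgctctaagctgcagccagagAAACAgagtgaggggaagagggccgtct
Otx2: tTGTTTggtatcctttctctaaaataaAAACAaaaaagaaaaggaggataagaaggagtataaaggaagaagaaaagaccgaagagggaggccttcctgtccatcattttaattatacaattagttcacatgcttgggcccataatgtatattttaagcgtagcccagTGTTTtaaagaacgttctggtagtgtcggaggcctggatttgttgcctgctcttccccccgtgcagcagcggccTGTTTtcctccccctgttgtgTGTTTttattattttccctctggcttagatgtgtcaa
The core AAACA, searched on both strands, was absent from the Fgf5 window, present 1 time in that of Sox4 and 5 times in the Otx2 window shown, and 50.5% of all 32851 promoters of the same length hold it. The other 3 Otx2 windows held it 3, 1 and 0 times, with 47.7%, 51.0% and 53.7% G and C. The window with 3 matches overlaps the one shown, and its 3 matches are among the 5 counted there. The longer forkhead letters TGTTTAC (3.65% of all promoters) and the octamer ATGCAAAT (1.74%) were found in none of the windows of these 3 genes, again on both strands. These letters overlap: TGTTTAC holds TGTTT. The windows differed in base composition, with 68.3% G and C and 29 CpG in Fgf5, 52.0% and 12 in Sox4, and 41.7% and 6 in the Otx2 window shown, against a median of 52.7% and 7 CpG over all promoters. A match is a description of the letters, not of binding.

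The SL comparison asked what 3 days of Foxd3 deletion do in serum. Fgf5 stood higher in the deleted cells, and Otx2 to a lesser degree, while Sox3 stood lower and Pou3f1, Sox4 and Zic2 overlapped between groups. With limma on log2(FPKM + 1), with p adjusted over all 12024 genes tested, 0 of the 6 genes passed the threshold of 0.05, where 0.00832% of all genes passed. At an unadjusted p under 0.05 there were 2, Fgf5 and Sox3, against 9.12% of all genes. By the authors' deposited p-values, adjusted here over all rows, 1 passed (Fgf5, as higher), against 0.535% of all rows, of which 0.44% as higher and 0.095% as lower. The groups did not overlap for 2 genes that were higher and 1 that was lower. Of all tested genes 37% did not overlap, 19.7% as higher and 17.3% as lower.

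Fgf5 measured 4.03 and 4.56 FPKM in the deleted libraries, against 2.05 and 1.31 FPKM in the floxed libraries. Both deleted libraries lay above both floxed ones. The log2 difference was 0.99 (SE 0.19, limma adjusted p = 0.186). The authors' deposited table gave a fold of 2.63 (adjusted here, p = 0.00326), from 652 mean reads in the deleted group and 249 in the floxed group. Fgf5 passed limma's threshold when the spread was taken from all 12 libraries (adjusted p = 0.0108), where 1.54% of all genes passed. Outside SL its group means were only 0.0123 to 0.0568 FPKM. Such libraries add almost no spread, so this pass adds nothing to the SL difference.

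Otx2 measured 26.4 and 38.9 FPKM in the deleted libraries, against 24.9 and 23.1 FPKM in the floxed libraries. The groups did not overlap, but the lower deleted library lay close to the floxed ones. The log2 difference was 0.40 (SE 0.19, limma adjusted p = 0.608; 95% interval -0.05 to 0.86). Sox3 measured 1.30 and 2.21 FPKM in the deleted libraries, against 2.45 and 3.76 FPKM in the floxed libraries. Both deleted libraries lay below both floxed ones, with a log2 difference of -0.58 (SE 0.24, limma adjusted p = 0.547). Pou3f1 measured 8.77 and 14.1 FPKM in the deleted libraries, against 12.2 and 15.5 FPKM in the floxed libraries, and overlapped (log2 difference -0.28, SE 0.23, limma adjusted p = 0.856).

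Sox4 measured 7.69 and 9.33 FPKM in the deleted libraries, against 7.95 and 11.0 FPKM in the floxed libraries, a log2 difference of -0.13 whose 95% interval ran from -0.58 to 0.32. Zic2 measured 8.05 and 16.6 FPKM in the deleted libraries, against 12.9 and 24.8 FPKM in the floxed libraries. Within each group the 2 Zic2 libraries lay farther apart than the 2 group means, and the log2 difference of -0.59 (SE 0.38) had a limma adjusted p of 0.775. Without deleted replicate 2, the higher deleted library, the log2 difference of Zic2 was -1.07, and without deleted replicate 1 it was -0.11. Without deleted replicate 1, the log2 difference of Fgf5 was 1.07 and that of Pou3f1 was 0.034. Zic5, a Zic2 relative that lies 9757 bases away on chromosome 14 in the opposite direction, had a like split: 8.55 and 18.0 FPKM in the deleted libraries, against 12.7 and 27.4 FPKM in the floxed libraries.

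Replicate 2 was the higher library for all 6 genes in SL Foxd3-/- and for Pou3f1, Sox3, Sox4 and Zic2 in SL Foxd3fl/fl. Among all tested genes replicate 2 was the higher for 53.1% in SL Foxd3-/- and 51.8% in SL Foxd3fl/fl. Feeder markers stood higher in the deleted SL libraries. All 14 tested fibroblast markers, of 16 in the list, lay above 0 (median log2 difference 0.55, against -0.01 over all tested genes). However, 0 passed limma, and 10 had an unadjusted p under 0.05 (9.12% of all genes). By the authors' test 5 passed as higher, against 0.44% of all rows. Their summed level was 529 to 618 FPKM in the deleted libraries and 383 to 393 FPKM in the floxed ones, with none of the 16 listed at 0. The 8 neural progenitor markers with a row of their own summed to 31.0 to 35.5 FPKM in deleted and 40.6 to 45.8 FPKM in floxed libraries. The part of either in the values of the 6 genes was not tested, and in bulk RNA fewer cells of a type cannot be told apart from less RNA per cell.

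**Figure D2:**
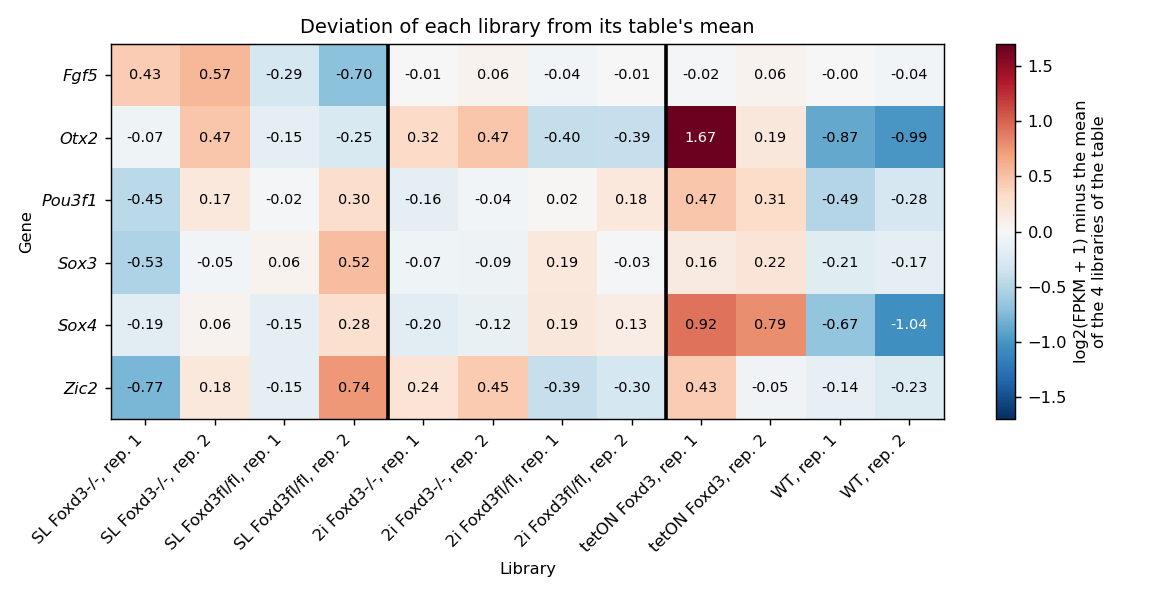
Each cell gives log2(FPKM + 1) of 1 gene (row) in 1 library (column) minus the mean of the 4 libraries of its table, red above and blue below that mean; thick lines part the tables. Zic2 runs from -0.77 in SL Foxd3-/- replicate 1 to 0.74 in SL Foxd3fl/fl replicate 2, and Otx2 reaches 1.67 in tetON Foxd3 replicate 1 alone.

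In 2i, where the inhibitors hold cells near the naive state, the 6 genes split. Otx2 and Zic2 rose in the libraries labelled Foxd3-/- and Sox4 fell. Fgf5, Pou3f1 and Sox3 were below a group mean of 1 FPKM and were not tested. All 3 tested genes passed limma, but so did 67.6% of the 11637 genes tested (47.9% as higher, 19.7% as lower; 64.1% after scaling), and a call in this comparison sets no gene apart. The median tested gene stood 0.19 higher on the log2 scale in the libraries labelled Foxd3-/-, and at -0.01 after median-of-ratios scaling. By the authors' deposited p-values, adjusted here, 4 of the 6 passed (Otx2 and Zic2 as higher, Sox4 and Pou3f1 as lower), against 40.8% of all rows (20.6% as higher, 20.2% as lower).

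Otx2 measured 9.89 and 11.1 FPKM in the libraries labelled Foxd3-/-, against 5.58 and 5.65 FPKM in Foxd3fl/fl. The groups lay clear of each other, with a log2 difference of 0.79 (SE 0.09, limma adjusted p = 0.000150) and of 0.59 after scaling. Zic2 measured 11.8 and 13.9 FPKM in the libraries labelled Foxd3-/-, against 7.32 and 7.80 FPKM in Foxd3fl/fl. Its log2 difference was 0.69 (SE 0.10, limma adjusted p = 0.000384), and 0.49 after scaling. Sox4 measured 1.17 and 1.29 FPKM in the libraries labelled Foxd3-/-, against 1.83 and 1.72 FPKM in Foxd3fl/fl. The log2 difference was -0.32 (SE 0.10, limma adjusted p = 0.0202), and -0.45 after scaling. Sox4 did not pass without replicate 1 or replicate 2 of the libraries labelled Foxd3-/- (limma adjusted p = 0.120 and 0.0548) or without Foxd3fl/fl replicate 1 (0.0508). With the spread taken from all 12 libraries 0 of the 3 passed limma, where 47.6% of all genes passed. The adjusted p was 0.0919 for Otx2, 0.102 for Zic2 and 0.154 for Sox4, and 0 of the 3 had an unadjusted p under 0.05. That spread takes in the libraries outside 2i. The SE was then 0.36 for Otx2, 0.32 for Zic2 and 0.17 for Sox4.

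The 3 untested genes were low. Pou3f1 measured 0.355 and 0.470 FPKM in the libraries labelled Foxd3-/-, against 0.536 and 0.717 FPKM in Foxd3fl/fl, and the authors' deposited table gave a fold of -1.76 (adjusted here, p = 0.0274). Sox3 measured 0.294 and 0.273 FPKM in the libraries labelled Foxd3-/-, against 0.542 and 0.332 FPKM in Foxd3fl/fl. Both genes lay lower without overlap between groups. Fgf5 measured 0.0239 and 0.0775 FPKM in the libraries labelled Foxd3-/-, against 0 and 0.0246 FPKM in Foxd3fl/fl, from 3.62 and 1.04 mean reads, too few to show a difference. Over the 6 genes, 2 were higher and 3 lower without overlap, and of all tested genes 85.3% did not overlap, 58.7% as higher and 26.6% as lower. The fibroblast list did not move one way in 2i. Of 7 tested, 5 passed as higher and 1, Thy1, as lower (-1.61), against 47.9% and 19.7% of all genes. After scaling 5 passed as higher and 2 as lower. Its 16 genes summed to 40.1 to 40.9 FPKM in the libraries labelled Foxd3-/- and 17.7 to 21.6 FPKM in Foxd3fl/fl, with Lum listed at 0 in both groups. The 8 neural progenitor markers summed to 12.6 to 12.9 FPKM in the libraries labelled Foxd3-/- and 8.29 to 8.54 FPKM in Foxd3fl/fl, with Neurog2 listed at 0 in Foxd3-/-. The part of either list in these values was not tested.

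Overexpression of Foxd3 asked the converse question, with tetON Foxd3 set against WT and no tetON Foxd3 group without doxycycline. The level of 5 of the 6 genes was higher in both tetON Foxd3 libraries than in both WT libraries, and 0 were lower without overlap. Of all tested genes 52.3% did not overlap, 29.5% as higher and 22.8% as lower. Sox4 rose, and it alone of the 4 genes tested passed limma, where 2.64% of 11972 tested genes passed (0.994% as higher, 1.65% as lower; 2.51% after scaling). At an unadjusted p under 0.05 there were 3 (Sox4, Pou3f1 and Otx2), against 20.8% of all genes. By the authors' deposited p-values, adjusted here, 2 passed as higher (Sox4 and Pou3f1), against 4.55% of all rows (1.96% as higher, 2.59% as lower). With the spread taken from all 12 libraries 3 of 4 passed limma as higher (Sox4, Otx2 and Pou3f1), against 14.5% of all genes.

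Sox4 measured 9.03 and 8.22 FPKM in the tetON Foxd3 libraries, against 2.35 and 1.58 FPKM in WT. Its log2 difference was 1.71 (SE 0.18, limma adjusted p = 0.0240), and the authors' deposited table gave a fold of 4.21. Without WT replicate 2 the limma adjusted p was 0.0548, and with no filter on low values it was 0.155. Otx2 measured 50.6 and 17.4 FPKM in the tetON Foxd3 libraries, against 7.83 and 7.17 FPKM in WT. Both tetON Foxd3 libraries were above both of WT, but they differed from each other by more than the lower one differed from WT. The log2 difference was 1.86 (SE 0.46, limma adjusted p = 0.101). It was 2.60 without tetON Foxd3 replicate 2 and 1.12 without tetON Foxd3 replicate 1.

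Pou3f1 measured 2.90 and 2.49 FPKM in the tetON Foxd3 libraries, against 0.999 and 1.31 FPKM in WT. The groups lay apart, with a log2 difference of 0.78 (SE 0.17, limma adjusted p = 0.0784), and a fold of 2.34 in the authors' deposited table (adjusted here, p = 0.0295). Sox3 measured 0.950 and 1.03 FPKM in the tetON Foxd3 libraries, against 0.513 and 0.558 FPKM in WT. Its higher group mean, 0.991 FPKM, lay just under the filter of 1 FPKM, so it was not tested. With no filter its log2 difference was 0.37 (SE 0.04, limma adjusted p = 0.149). Zic2 measured 5.99 and 4.00 FPKM in the tetON Foxd3 libraries, against 3.69 and 3.42 FPKM in WT (log2 difference 0.38, SE 0.20, limma adjusted p = 0.368). Fgf5 stayed near 0, at 0.0249 and 0.0887 FPKM in the tetON Foxd3 libraries, against 0.0416 and 0.0133 FPKM in WT, from 4.65 and 2.68 mean reads.

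Neural progenitor markers moved in these same libraries: the 8 with a row of their own summed to 15.9 to 20.7 FPKM in tetON Foxd3 and 6.14 to 11.0 FPKM in WT. Of the 3 tested, 2 passed limma as higher, Nes (log2 difference 1.78) and Sox1 (1.01), against 0.994% of all genes. Neurog2 and Fabp7 were listed at 0 in both WT libraries. Feeder markers summed to 11.7 and 33.5 FPKM in the tetON Foxd3 libraries, against 10.5 and 16.0 FPKM in WT, grown without feeders, with Col3a1 and Lum listed at 0 in all 4 libraries. The part of either list in the 6 genes was not tested.

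**Figure D3:**
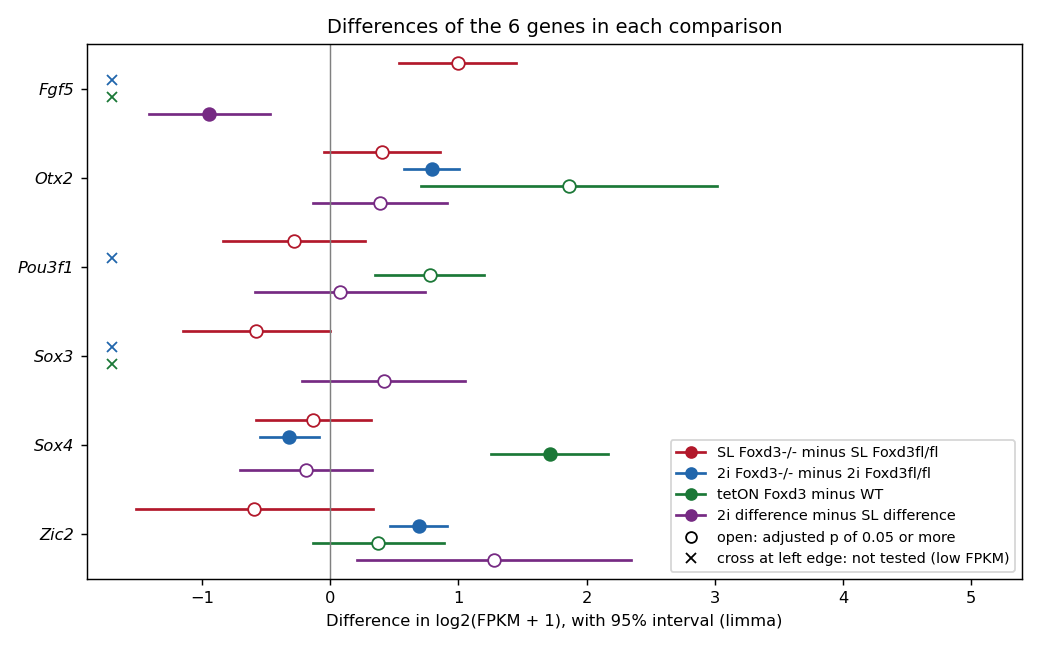
Difference in log2(FPKM + 1) of each gene with its 95% interval, in the 3 comparisons and for the 2i difference minus the SL difference; filled points have a limma adjusted p under 0.05 and crosses at the left edge mark genes not tested. Sox4 at 1.71 is the filled point of overexpression, Otx2, Sox4 and Zic2 are filled in 2i, and in SL no point is filled.

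The SL and 2i comparisons were set against each other as the 2i difference minus the SL difference, over 12497 genes in the 8 libraries. Since Foxd3 was not lower by FPKM in the libraries labelled Foxd3-/- in 2i, this compares labelled groups and not a deletion shown in both media. Of the 6 genes 1 passed limma, Fgf5 (value -0.94, SE 0.21, adjusted p = 0.0156), where 23.9% of all genes passed (18.4% as higher, 5.55% as lower; 21.3% after scaling and 19.6% with the spread of all 12 libraries). Fgf5 entered this test through the SL groups alone. In 2i it lay near 0, with a log2 difference of 0.05 from 3.62 and 1.04 mean reads, so the value restates the SL difference of 0.99 and does not show that the response in 2i differed. As a ratio of mean FPKM, Foxd3-/- over Foxd3fl/fl, Fgf5 stood at 4.13 in 2i, from means of 0.0507 and 0.0123 FPKM, and 2.56 in SL. The authors' deposited folds ran the other way, at 1.74 in 2i (authors' test, adjusted here, p = 0.533) and 2.63 in SL. With a pseudocount of 0.1 in place of 1, Fgf5 did not pass (-0.92, limma adjusted p = 0.151). Nor did it without replicate 1 or replicate 2 of 2i Foxd3-/- (limma adjusted p = 0.0642 and 0.0644), without 2i Foxd3fl/fl replicate 2 (0.0687), or with no filter on low values (0.0570). Zic2 had the largest value of the 6, 1.28 (SE 0.47, limma adjusted p = 0.0787), from opposite signs in the 2 media. Over left-out libraries the value of Zic2 ran from 0.80 to 1.76 and that of Otx2 from 0.12 to 0.66. The values of Otx2 (0.39), Sox3 (0.42), Pou3f1 (0.08) and Sox4 (-0.19) had 95% intervals that included 0. Like Fgf5, Sox3 and Pou3f1 entered this test through the SL groups alone, with 2i means below 1 FPKM. Their values therefore cannot show whether the response in 2i differed.

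Other genes of the formative and primed epiblast, 18 in all, did not move as 1 block either; Sox11, Zic5 and Fgf15 among them also stand in the lists of relatives and of FGF genes. In SL, 0 of 18 passed limma and 14 lay below 0 (median -0.26, against -0.01 over all tested genes). Of the 18, 9 had an unadjusted p under 0.05, against 9.12% of all genes. The authors' test called Pim2 alone, as lower, against 0.095% of all rows. The smallest limma p-values were those of Pim2, Dnmt3l and Dnmt3b. The kinase gene Pim2 measured 77.7 and 95.1 FPKM in the deleted libraries, against 130 and 129 FPKM in the floxed libraries (log2 difference -0.59, limma adjusted p = 0.203). The de novo DNA methyltransferase gene Dnmt3b measured 109 and 128 FPKM in the deleted libraries, against 149 and 193 FPKM in floxed libraries (-0.52). Dnmt3l, its cofactor, stood on the other side, with 116 and 98.9 FPKM in the deleted libraries, against 80.3 and 68.0 FPKM in floxed libraries (0.53).

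In 2i, 8 of 16 further genes were higher and 6 lower, and 5 were higher and 6 lower after scaling, where 67.6% of all genes were called. Dnmt3l (log2 difference 1.60) and the tight junction gene Cldn6 (0.85) rose. In overexpression, 1 of 16 rose and 2 fell by limma, against 2.64% of all genes. Of the 16, 12 lay above 0, and 10 had an unadjusted p under 0.05, against 20.8% of all genes. The authors' test called 6 as higher (Dnmt3a, Dnmt3b, Fst, Pim2, Sall2 and Sox11), against 1.96% of all rows. It called 2 as lower (Dnmt3l and Grhl2), against 2.59% of all rows. Fst, which encodes the activin antagonist follistatin, rose to 2.73 and 2.56 FPKM in the tetON Foxd3 libraries, against 0.381 and 0.501 FPKM in WT. Dnmt3l fell to 53.6 and 60.8 FPKM in the tetON Foxd3 libraries, against 153 and 111 FPKM in WT, and the epithelial factor Grhl2 to 2.21 and 2.96 FPKM against 9.05 and 6.90 FPKM. For the difference between media, 6 of 18 were higher and 1 lower (5 and 1 after scaling), against 23.9% of all genes, led by Nodal, the ligand that maintains the epiblast (1.93, limma adjusted p = 0.00287), and Cldn6 (1.00).

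Close relatives of the 6 genes were counted next. Otx1, Crx, Pou3f2, Pou3f3 and Pou3f4 did not reach 1 FPKM in any group, nor did Zic1 and Zic4. Of the SOX relatives Sox1, Sox2, Sox11 and Sox12, 1 of 4 tested passed limma in overexpression as higher, against 0.994% of all genes. This was Sox1, which is also among the neural progenitor markers. Sox1 measured 5.31 and 5.45 FPKM in the tetON Foxd3 libraries, against 2.04 and 2.31 FPKM in WT. Sox11, of the same group as Sox4, measured 2.88 and 2.10 FPKM in the tetON Foxd3 libraries, against 0.342 and 0.724 FPKM in WT (log2 difference 1.19, limma adjusted p = 0.0553). In 2i Sox2 rose (0.76) and Sox11 fell (-0.58) in the libraries labelled Foxd3-/-, and Sox12 rose (0.39) but did not pass after scaling, where 67.6% of all genes were called. In SL 0 of 3 tested passed limma or the authors' test, and 2 had an unadjusted p under 0.05, against 9.12% of all genes. Zic5 (0.59) rose in 2i, and its log2 difference was -0.55 in SL (limma adjusted p = 0.831) and 0.18 in overexpression (limma adjusted p = 0.706).

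The genes of FGF signalling, in which Fgf5 is a ligand, were counted in the same way. Of ligands and receptors, 0 of 5 passed limma or the authors' test in SL. At an unadjusted p under 0.05 there were 3, against 9.12% of all genes. In 2i, 3 of 5 rose (Fgf4, Fgfr1 and Fgfr3; without Fgf4 after scaling) and Fgfr4 fell, where 47.9% of all genes were called as higher and 19.7% as lower. In overexpression 0 of 6 passed limma, and 2 had an unadjusted p under 0.05 (20.8% of all genes). The authors' test called Fgfr3 as lower, against 2.59% of all rows. Fgf4, the ligand by which stem cells stimulate themselves, measured 16.3 and 19.1 FPKM in SL Foxd3-/-, against 25.0 and 26.8 FPKM in SL Foxd3fl/fl (log2 difference -0.53, limma adjusted p = 0.257). Of 8 ERK response genes, 0 passed limma in SL and 2 had an unadjusted p under 0.05, against 9.12% of all genes. The phosphatase gene Dusp4 alone passed the authors' test, as higher, against 0.44% of all rows. Dusp4 measured 20.3 and 17.9 FPKM in the deleted libraries, against 10.7 and 7.82 FPKM in floxed libraries (0.98, limma adjusted p = 0.180). In 2i 5 of 6 rose, among them Dusp6 (0.79) and Spred1 (0.76), and Dusp4 fell (-0.57), with 4 and 1 after scaling, against the same shares of all genes. In overexpression 1 of 8, the ETS factor Etv4, fell to 19.4 and 21.6 FPKM in the tetON Foxd3 libraries, against 67.0 and 72.5 FPKM in WT. Of all genes 1.65% were called as lower by limma there.

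**Figure D4:**
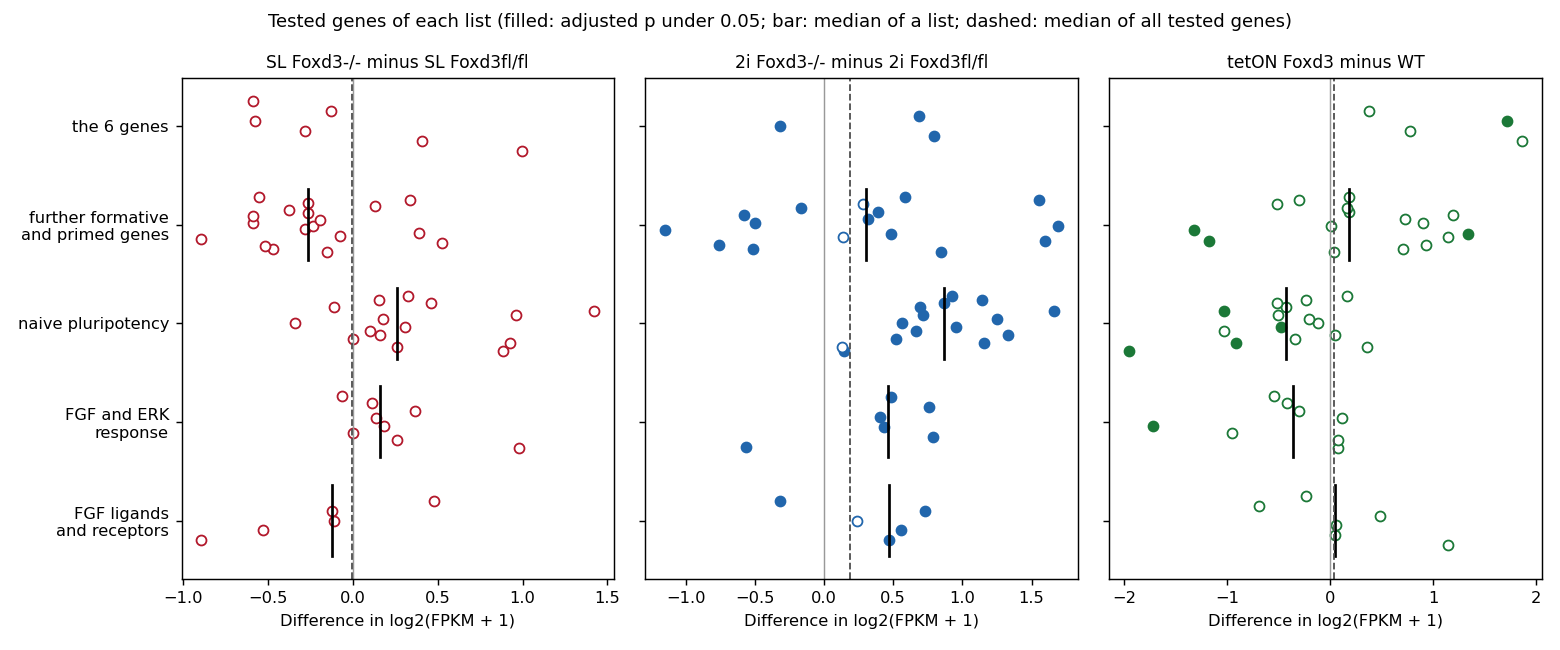
Difference in log2(FPKM + 1) of every tested gene of the 6 and of 4 further lists, in the 3 comparisons; each point is a gene, filled where the limma adjusted p is under 0.05, bars are medians of those lists and dashed lines the median of all tested genes. In overexpression the 4 tested genes of the 6 lie between 0.38 and 1.86, while the naive list has a median of -0.43.

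Naive pluripotency genes, which the epiblast genes replace in the embryo, were set beside them. In SL 0 of 15 passed limma or the authors' test, 5 had an unadjusted p under 0.05 (9.12% of all genes), and 13 lay above 0 (median 0.26). Tbx3 (1.42), Prdm14 (0.96) and Dppa3 (0.89) had the smallest p. In 2i 14 of 15 rose (13 after scaling; median 0.87), led by Fbxo15 (1.15), Tbx3 (1.67) and Zfp57 (0.93), against 47.9% of all genes called as higher. In overexpression 4 of 15 fell (Dppa3, Tbx3, Fbxo15 and Nanog), with a median of -0.43 against 0.03 over all tested genes, and 1.65% of all genes were called as lower. Dppa3 fell to 2.02 FPKM in each tetON Foxd3 library against 9.95 and 11.5 FPKM in WT, Tbx3 to 18.5 and 18.4 against 38.9 and 39.0 FPKM, and Fbxo15 to 62.9 and 65.2 against 126 and 117 FPKM. Of the core factors Pou5f1, Sox2, Sall4 and Lin28a, 0 of 4 passed limma or the authors' test in SL or in overexpression, nor had any an unadjusted p under 0.05. In 2i Sox2 and Sall4 rose and the RNA-binding protein gene Lin28a fell (-1.34). After scaling Sox2 was higher, Lin28a and Pou5f1 were lower, and Sall4 did not pass.

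The genes whose pattern lay closest to each of the 6 were sought among 10235 genes, by Pearson's r of log2(FPKM + 1) over the 12 libraries after the mean of each table was subtracted. These libraries share their tables and group contrasts, so r is a description. For Fgf5 they were Cd63 (r = 0.885), Snx1 (0.852) and Grhl3 (0.852). For Otx2 they were Ift43 (0.965), Cgnl1 (0.953) and B3galt4 (0.947), and for Pou3f1 Ramp3 (0.967), Lancl2 (0.959) and Mta1 (0.948). For Sox3 they were Tbc1d7 (0.963), Dhx30 (0.956) and Soga2 (0.941). For Sox4 they were Cyp2j6 (0.975), Unc5b (0.974) and Mospd1 (0.974), and for Zic2 Zswim5 (0.973), Hlcs (0.961) and Stc2 (0.960). Only genes with a mean of at least 1 FPKM in some group of every table were searched. Fgf5, Pou3f1 and Sox3 lay below this in 2i, so they could not appear as a closest gene. Otx2, Sox4 and Zic2 could appear, and none of them was among the 3 closest of another of the 6.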

How the data were processed

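RNA-seq was analysed in 12 libraries in 6 groups of 2. Per the file headers, the authors deposited 1 table per comparison with FPKM for each library, group mean reads (a signal after the authors' own scaling), a signed fold (a ratio of groups, negative where lower) and an unadjusted p-value. Per the submitters' processing notes, the builds were GRCm38 and mm10 and the tools DESeq2, TopHat2, Cufflinks, FastQC and SAMtools, without versions. The column names of the deletion tables give no medium, which was taken from the table's name.

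FPKM is not a count, so no count test was run. Each comparison was fitted alone with limma 3.58.1 in R 4.3.3 (trended, 2 residual degrees of freedom) on log2(FPKM + 1), which understates changes of low genes, for genes whose higher group mean reached 1 FPKM. P-values are 2-sided, Benjamini-Hochberg adjusted over all genes tested, with a threshold of 0.05. An exact permutation of 2 against 2 cannot give p below 0.3333 and was not used. The authors' p-values were adjusted likewise over all rows. The fit was tested on simulated data. Lists held 8 gene sets and 5 marker sets; the members and lists were chosen with earlier results of these data known. Named from each list were up to 3 tested genes with the smallest p per comparison. One result is not reported here. Of the gene IDs, 19513 of each table were in GENCODE M21 (GRCm38), which gave coordinates. Alternatives were another pseudocount, no filter, scaling, the spread of all 12 libraries (6 residual degrees of freedom), a replicate block, each library left out and the authors' test.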

Additional observations from a re-analysis of the deposited data

Results flagged for a closer look

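Fgf5 passed the test of the 2i against the SL difference, but through SL alone, since it lay near 0 in 2i. The 2i difference minus the SL difference was -0.94 on the log2 scale (limma adjusted p = 0.0156 over 12497 genes, of which 23.9% passed). Both SL Foxd3-/- libraries (4.03 and 4.56 FPKM) lay above both SL Foxd3fl/fl libraries (2.05 and 1.31 FPKM), while in 2i the libraries labelled Foxd3-/- held 0.0239 and 0.0775 FPKM against 0 and 0.0246 FPKM in Foxd3fl/fl. The 13 alternatives gave values from -1.14 to -0.74, with limma adjusted p from 0.00339 to 0.151. With 3.62 and 1.04 mean reads in 2i and a Foxd3 level there that does not bear out the label, the value restates the SL difference and does not show that the deletion response differed between media.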

How the results depend on the processing

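With a pseudocount of 0.1, with no filter on low values or after scaling, the count of the 6 genes called stayed at 0 in SL and 3 in 2i. It was 1 in overexpression and 1 for the difference between media, but 0 in overexpression with no filter and 0 for the media with the pseudocount of 0.1 or with no filter. With the spread of all 12 libraries the counts were 1 in SL, 0 in 2i and 3 in overexpression, the difference between media staying at 1, and by the authors' test 1 in SL and 2 in overexpression. Leaving out 1 library at a time gave 0 to 1 in SL, 2 to 3 in 2i, 0 to 2 in overexpression and 0 to 3 for the media; a lone library is then assumed to vary like the others.

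Over all genes, SL calls numbered 1, but 0 with no filter, 185 with the spread of all 12 libraries, 107 by the authors' test and 1 to 308 with a library left out. Overexpression calls numbered 316, but 24 with no filter, 1734 with the spread of all 12 libraries, 909 by the authors' test and 39 to 366 with a library left out. Calls in 2i numbered 7864 (6499 to 7787 with a library left out), with 5573 higher and 2291 lower, or 3555 higher and 3903 lower after scaling. The media difference gave 2987 (1815 with no filter, 682 to 3744 with a library left out), with 2294 higher and 693 lower, or 1220 higher and 1446 lower after scaling.

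Replicate numbers are not said to pair libraries. Deviations of same-numbered libraries correlated at 0.605 in SL, 0.596 in overexpression and -0.0539 in 2i. With the replicate block, 5 of the 6 genes passed in SL (Fgf5 and Otx2 as higher, Pou3f1, Sox3 and Zic2 as lower), 3 in overexpression, 3 in 2i and 3 for the media, and over all genes 1997 in SL, 2473 in overexpression and 5342 for the media, which is a hint from the data and not from the design.

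Signs turned for genes not called in the comparison as reported: Pou3f1 in SL (-0.59 to 0.034 over left-out libraries), Sox4 in SL (-0.34 to 0.082), Sox4 for the media (-0.40 to 0.027) and Pou3f1 for the media (-0.24 to 0.39 over left-out libraries, -0.20 with the pseudocount of 0.1, -0.0064 after scaling). The cause was not tested. Depth per library is unknown, and Fgf5, Pou3f1 and Sox3 are too low in 2i for a test on FPKM.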

Other observations

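Genes of other early lineages were low in these libraries. The 7 gastrulation mesendoderm markers with a row of their own summed to 15.0 and 6.04 FPKM in SL Foxd3-/- against 10.5 and 5.60 FPKM in SL Foxd3fl/fl, and 0 of 3 tested passed limma or the authors' test, or an unadjusted p under 0.05. In 2i, T, the transcription factor of the primitive streak, rose in the libraries labelled Foxd3-/- (log2 difference 0.98, limma adjusted p = 6.3e-05), and T alone of 3 tested passed limma. The 6 primitive endoderm markers summed to 3.88 to 4.08 FPKM in 2i Foxd3-/- against 2.16 to 2.43 FPKM in 2i Foxd3fl/fl, where Gata4 (0.77) and Gata6 (0.63) rose. Of all genes tested in 2i 67.6% passed limma, 47.9% as higher, so the calls of T, Gata4 and Gata6 do not set them apart. In SL 0 of 1 and in overexpression 0 of 3 tested passed limma or the authors' test. At an unadjusted p under 0.05 there were 0 and 1, against 9.12% and 20.8% of all genes.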
